A study of Mus musculus with 6 samples.

Results

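The distal convoluted tubule is the short nephron segment behind the loop of Henle that takes up salt through a thiazide-sensitive cotransporter, and 10 genes of that segment and of the WNK kinase pathway were followed in kidney RNA of diabetic mice. The genes were picked by symbol (Slc12a3, Pvalb, Trpm6, Calb1, Slc8a1, Wnk1, Wnk4, Klhl3, Stk39 and Kcnj10), and all 10 were found among the 17684 genes of the table. They and the further gene lists below were chosen with earlier results of these data known. The 13 Wnk1 transcripts among 54723 transcripts were followed as well. WNK kinases sense chloride and potassium, and they phosphorylate the kinase SPAK, which in turn phosphorylates and activates the sodium-chloride cotransporter NCC. An adaptor that contains KLHL3 marks WNK kinases for degradation, and the basolateral potassium channel Kir4.1 sets the chloride level that the kinases sense. Loss of NCC function causes salt wasting with low potassium and magnesium, and mutations in the WNK kinases or in KLHL3 cause familial hypertension with high potassium.

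The study used db/db mice, which lack a working leptin receptor and become obese and diabetic, on the strain given as C57 BLKS/L in the sample labels and as C57BLKS/J in the paper. All mice were 50 weeks old. The 3 mice of the Db group had received normal saline over 40 weeks, and in the Db + Ato10 group 3 mice were given atorvastatin, an inhibitor of cholesterol synthesis, at 10 mg/kg per day of dosing over the same 40 weeks. One label field names atorvastatin for all 6 samples, and the groups here follow the sample titles and the field that sets saline apart. No lean or untreated mice were among the libraries, so both groups share the diabetic genotype. Whole kidney was taken, with 1 library per mouse. Expected counts, which are estimated reads per gene, summed to 13134930, 11381678 and 12426051 in Db replicates 1 to 3 and to 14578023, 14667909 and 13133241 in Db + Ato10 replicates 1 to 3. Levels are given as CPM, which are counts relative to the TMM-scaled library size, and as TPM, which are also scaled by length. With 3 libraries in each group, an exact permutation test of a single value cannot give a p-value under 0.1.

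Some libraries stood apart. Db replicate 1 had 2 counts over 4 Y-linked genes and the other 5 libraries had between 1419 and 2116, although the study states that only males were enrolled. Leukocyte genes were far higher in Db + Ato10 replicates 1 and 2 than in the Db group and lay near the Db group in replicate 3. Of 4 tubular injury genes, 3 were higher in every Db + Ato10 library than in any Db library, beside 12.0% of all genes tested. The median of the 10 genes and their counts are therefore also given without these libraries.

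Each of the 10 genes was lower in the Db + Ato10 group, and for all 10 every Db + Ato10 library lay below every Db library, as did 11.3% of the 13679 genes tested. The median log2 fold change of the 10 genes was -1.04, beside -0.0063 for all genes tested. By the quasi-likelihood test of edgeR, 0 of the 10 genes met both criteria of a DEG, a fold change over 1.5 and an adjusted p-value under 0.05, and 0% of all genes did. Lower at an unadjusted p-value under 0.05 were 9 of the 10 genes, beside 5.71% of all genes tested. DESeq2 called 6 of the 10 as lower, beside 1.29% of all genes tested. With 1 library left out, a setting chosen after seeing the data, DESeq2 called between 1 and 7 of the 10, with 1 beside 0.258% of all genes without Db replicate 1 and 7 beside 7.50% without Db + Ato10 replicate 3. Since kidneys were measured whole, fewer cells of a type and less RNA per cell cannot be told apart. The median was -0.95 without Db replicate 1, with 6 of 10 genes lower at an unadjusted p-value under 0.05, beside 2.52% of all genes. It was -1.15, -0.84 and -1.07 without Db + Ato10 replicate 1, 2 and 3, with 10, 7 and 8 such genes, beside 4.71%, 3.03% and 13.1% of all genes in the same fits.

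**Figure D1:**
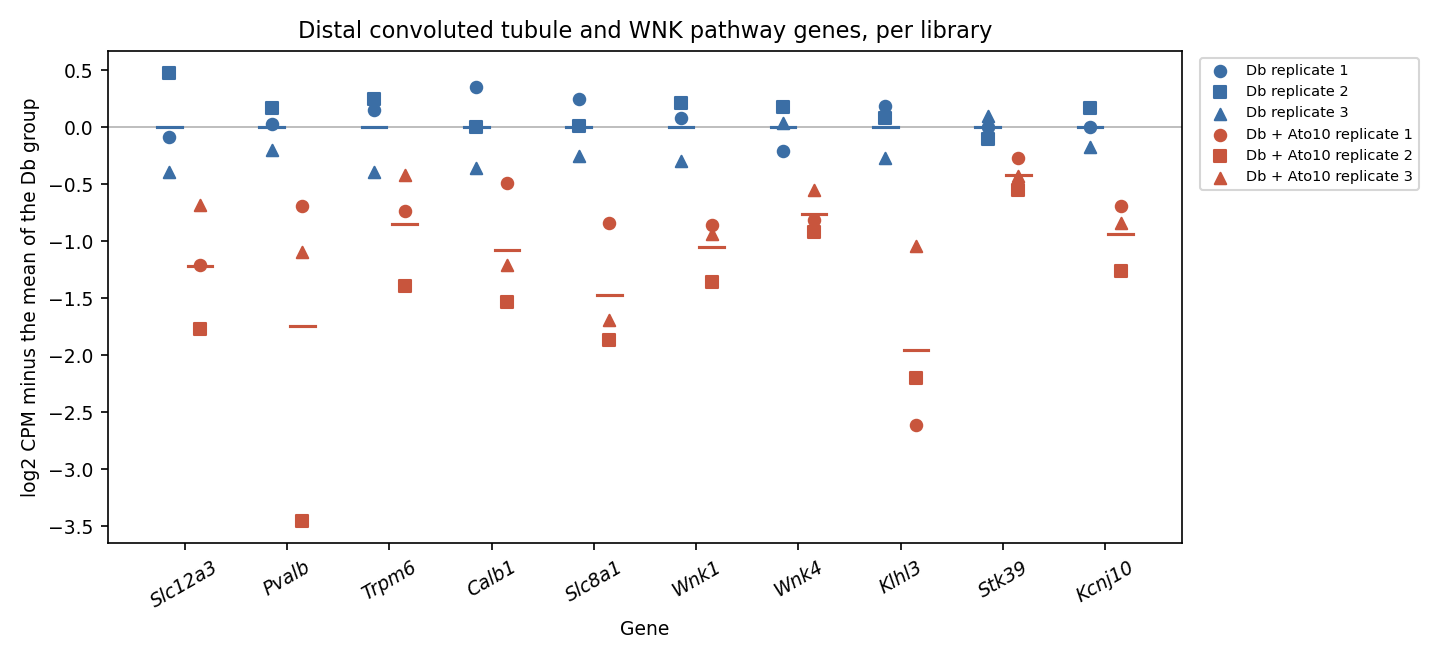
Levels of the 10 genes in each library, as log2 CPM minus the mean of the 3 Db libraries of that gene. Points are libraries, short lines are group means, blue is the Db group and red the Db + Ato10 group. For all 10 genes the red points lie below the blue points.

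Slc12a3 encodes NCC, the cotransporter that defines the segment. Its level was 1262, 1857 and 1019 CPM in Db replicates 1 to 3 and 579, 392 and 835 CPM in Db + Ato10 replicates 1 to 3. The groups did not overlap, but Db + Ato10 replicate 3 was close to Db replicate 3. The log2 fold change was -1.20 ± 0.37 (SE), with an unadjusted p-value of 0.016 and an adjusted p-value of 0.239 by edgeR. Under DESeq2 the adjusted p-value was 0.031.

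Pvalb encodes parvalbumin, a calcium-binding protein found in the first part of the segment. It was measured at 209, 231 and 178 CPM in the Db libraries and at 127, 18.6 and 95.7 CPM in the Db + Ato10 libraries. Db + Ato10 replicate 2 stood far below the other libraries of its group. The log2 fold change of -1.36 ± 0.62 (SE) had an unadjusted p-value of 0.067, an adjusted p-value of 0.322 by edgeR and an adjusted p-value of 0.192 by DESeq2, and it was -0.87 without Db + Ato10 replicate 2.

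Trpm6 encodes the apical channel through which magnesium enters. The libraries gave 63.2, 67.8 and 43.3 CPM in the Db group and 34.1, 21.7 and 42.6 CPM in the Db + Ato10 group, where replicate 3 reached nearly the lowest Db library. For Trpm6 the log2 fold change was -0.82 ± 0.29 (SE), with an unadjusted p-value of 0.027, an adjusted p-value of 0.252 by edgeR and an adjusted p-value of 0.136 by DESeq2.

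Calb1 encodes calbindin-D28k, the calcium buffer of the late segment and the connecting tubule. Its values were 1499, 1178 and 915 CPM in the Db group and 837, 406 and 507 CPM in the Db + Ato10 group. The highest Db + Ato10 library was replicate 1, just under Db replicate 3. The log2 fold change of Calb1 was -1.04 ± 0.35 (SE), with an unadjusted p-value of 0.022, an adjusted p-value of 0.242 by edgeR and an adjusted p-value of 0.057 by DESeq2.

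Slc8a1 encodes the sodium-calcium exchanger through which calcium leaves the cell on the blood side. It was at 411, 348 and 290 CPM in the Db libraries and at 193, 94.7 and 107 CPM in the Db + Ato10 libraries. All Db + Ato10 libraries lay well below the Db libraries. Its log2 fold change was -1.41 ± 0.31 (SE), with an unadjusted p-value of 0.0033, an adjusted p-value of 0.239 by edgeR and an adjusted p-value of 0.0033 by DESeq2.

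Of the kinases, Wnk1 was at 765, 836 and 589 CPM in the Db libraries and at 399, 282 and 376 CPM in the Db + Ato10 libraries. The libraries of the Db + Ato10 group were close to each other and clear of the Db group. The log2 fold change of Wnk1 was -1.05 ± 0.23 (SE), with an unadjusted p-value of 0.0033, an adjusted p-value of 0.239 by edgeR and an adjusted p-value of 0.0016 by DESeq2.

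Wnk4, the kinase that drives NCC in this segment, was at 311, 408 and 369 CPM in the Db libraries and at 205, 191 and 247 CPM in the Db + Ato10 libraries. Here the lowest Db library was replicate 1, unlike most of the genes. Wnk4 had a log2 fold change of -0.76 ± 0.18 (SE), with an unadjusted p-value of 0.0052, an adjusted p-value of 0.239 by edgeR and an adjusted p-value of 0.0059 by DESeq2.

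Stk39 encodes SPAK, the kinase between the WNK kinases and NCC. It was at 73.8, 68.4 and 78.8 CPM in the Db libraries and at 60.9, 50.2 and 54.7 CPM in the Db + Ato10 libraries. Of the 10 genes it differed least, and its libraries lay close together in each group. For Stk39 the log2 fold change was -0.41 ± 0.13 (SE), below the fold change criterion, with an unadjusted p-value of 0.018, an adjusted p-value of 0.239 by edgeR and an adjusted p-value of 0.124 by DESeq2.

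Klhl3, the adaptor that binds WNK kinases for ubiquitination, was at 23.3, 21.7 and 16.9 CPM in the Db libraries and at 3.23, 4.32 and 9.85 CPM in the Db + Ato10 libraries. Its lowest library was Db + Ato10 replicate 1, and replicate 3 was the highest of the group. Klhl3 had a log2 fold change of -1.83 ± 0.43 (SE), with an unadjusted p-value of 0.0046, an adjusted p-value of 0.239 by edgeR and an adjusted p-value of 0.0043 by DESeq2. Without Db + Ato10 replicate 3 the log2 fold change of Klhl3 was -2.44 with an adjusted p-value of 0.024 by edgeR. In that fit 1 of the 10 genes, Klhl3, met both criteria, beside 1106 of all 13517 genes tested, in either direction.

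Kcnj10 encodes Kir4.1. It was at 174, 195 and 154 CPM in the Db libraries and at 107, 72.3 and 96.7 CPM in the Db + Ato10 libraries. The groups were well apart. For Kcnj10 the log2 fold change was -0.92 ± 0.19 (SE), with an unadjusted p-value of 0.0024, an adjusted p-value of 0.239 by edgeR and an adjusted p-value of 0.0041 by DESeq2.

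Among the Db + Ato10 libraries, replicate 2 was the lowest for 9 of the 10 genes and replicate 1 for 1, Klhl3. Replicate 1 was the highest for 6 genes and replicate 3 for 4. In the Db group replicate 3 was the lowest for 8 genes. Relative to the Db mean on the log2 CPM scale, the median of the 10 genes was -0.77, -1.46 and -0.89 in Db + Ato10 replicates 1 to 3, and 0.057, 0.17 and -0.26 in Db replicates 1 to 3.

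Levels between the genes were compared as TPM. In the Db group the order was Calb1 (739 ± 180 TPM, SD, n = 3), Slc12a3 (735 ± 231), Pvalb (493 ± 60.4), Wnk4 (157 ± 21.3), Wnk1 (126 ± 22.1), Kcnj10 (56.2 ± 6.98), Stk39 (44.5 ± 2.75), Slc8a1 (31.6 ± 5.54), Trpm6 (15.3 ± 3.57) and Klhl3 (13.4 ± 2.15). The TPM of the neighbours Calb1 and Slc12a3, Slc12a3 and Pvalb, Wnk4 and Wnk1, and Trpm6 and Klhl3 overlapped between Db libraries, and the other neighbours did not. In the Db + Ato10 group the order of mean TPM was the same except that Stk39 (31.3 ± 1.28 TPM, SD, n = 3) came before Kcnj10 (28.0 ± 4.21). The segment markers Slc12a3, Pvalb, Trpm6 and Calb1 were detected in all 6 libraries, from 5.69 TPM for Trpm6 in Db + Ato10 replicate 2 to 991 TPM for Slc12a3 in Db replicate 2.

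Wnk1 is read from more than 1 promoter. The upstream promoter gives the full-length kinase, and a promoter inside the gene gives a kidney-specific form without most of the kinase domain that is abundant in the distal convoluted tubule. Of 13 Wnk1 transcript models, 4 were curated and 9 predicted by RefSeq, and 10 had enough counts to be tested among 30175 transcripts. The 4 curated models match GENCODE models (GRCm38) that share 1 first exon with the start codon. The first exons of the predicted models are not given in the sources used here, so none was assigned to the kidney-specific form. Counts are split between overlapping models by estimation, which makes values of single models less certain than those of the gene.

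The 9 predicted models together were at 704, 725 and 552 CPM in the Db libraries and at 299, 207 and 275 CPM in the Db + Ato10 libraries. The 4 curated models together were at 60.8, 111 and 36.6 CPM in the Db libraries and at 99.6, 74.5 and 102 CPM in the Db + Ato10 libraries. The predicted models were lower in each Db + Ato10 library than in any Db library, and the curated models overlapped between the groups. The curated models made up 7.95%, 13.3% and 6.22% of Wnk1 counts in the Db libraries and 25.0%, 26.4% and 27.0% in the Db + Ato10 libraries. Their share was higher in every Db + Ato10 library than in any Db library. For such sums of models no share over other genes is given. Of 26279 single transcripts, 15.1% had shares without overlap, in either direction. The split of the models into curated and predicted was made after their values were seen, so no test was made of it.

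**Figure D2:**
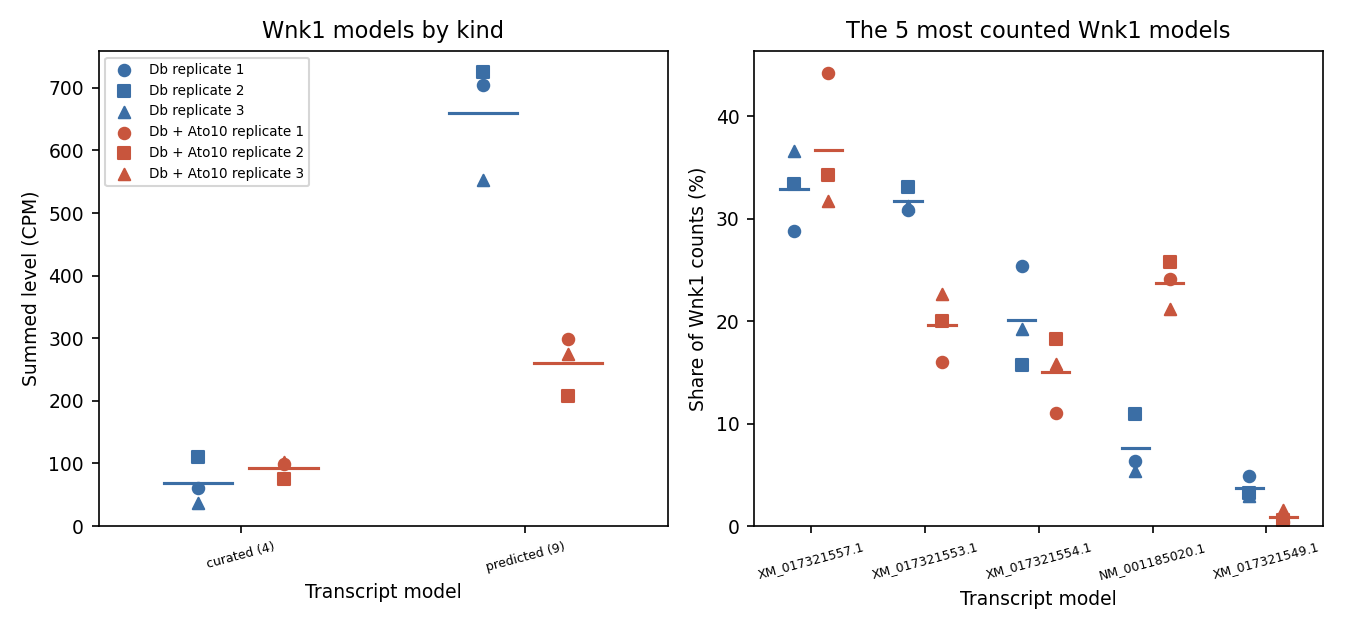
Wnk1 transcript models in each library. The left panel gives the summed CPM of the 4 curated and the 9 predicted models, and the right panel gives each of the 5 most counted models as a percent of all Wnk1 counts. Points are libraries, short lines are group means, blue is the Db group and red the Db + Ato10 group. The predicted models lie lower in the Db + Ato10 group, and the curated models overlap.

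Most curated counts were of NM_001185020.1, which held 6.37%, 10.9% and 5.41% of Wnk1 counts in the Db libraries and 24.1%, 25.8% and 21.2% in the Db + Ato10 libraries. The difference of the mean shares was 16.1 percentage points, and it was between 15.1 and 17.8 with any 1 library left out. The CPM of NM_001185020.1 had a log2 fold change of 0.57 ± 0.40 (SE), with an unadjusted p-value of 0.20 and an adjusted p-value of 0.759 by edgeR.

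XM_017321553.1 held 30.8%, 33.1% and 31.2% of Wnk1 counts in the Db libraries and between 16.0% and 22.7% in the Db + Ato10 libraries. It was lower in CPM, with a log2 fold change of -1.73 ± 0.23 (SE), an unadjusted p-value of 0.00034 and an adjusted p-value of 0.359 by edgeR. For XM_017321549.1 the share was between 2.90% and 4.89% in the Db libraries and between 0.381% and 1.59% in the Db + Ato10 libraries, with a log2 fold change of -3.13 ± 0.66 (SE) and an adjusted p-value of 0.373 by edgeR. XM_017321548.1, a rare model with 23.9, 26.5 and 33.8 counts in the Db libraries, had 0 counts in all Db + Ato10 libraries, which is at least 10.7-fold lower against a floor of 3 counts per library.

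The most counted model, XM_017321557.1, held a mean of 32.9% of Wnk1 counts in the Db group and 36.7% in the Db + Ato10 group, and its shares overlapped. XM_017321554.1 had shares from 15.7% to 25.4% in the Db group and of up to 18.2% in the Db + Ato10 group, which overlapped too. Both were lower in CPM, with log2 fold changes of -0.83 ± 0.27 (SE) and -1.47 ± 0.25 (SE) and adjusted p-values of 0.543 and 0.359 by edgeR. In all, 4 of the 10 tested models had shares that did not overlap between the groups, as did 15.1% of 26279 tested transcripts of genes with more than 1 transcript, and each of these 4 had an adjusted p-value of 0.25 by the exact permutation test over the tested models. Lower at an unadjusted p-value under 0.05 were 5 of the 10 models, beside 2.81% of all transcripts, and 0 were higher. By edgeR 0 of the 10 met both DEG criteria, beside 0% of all transcripts, and by DESeq2 4 did as lower, beside 1.05%. One model in each of these counts, XM_017321548.1, met the count filter through the Db group alone and so had to differ. Over the 9 models that reached 10 counts in both groups, 3 had shares without overlap, 4 were lower at an unadjusted p-value under 0.05 and 3 were called lower by DESeq2, beside 13.8%, 2.38% and 0.642% of the transcripts that did so.

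Of 15 partners and regulators of WNK kinases, 3 were lower at an unadjusted p-value under 0.05 and 0 were higher, beside 5.71% and 11.2% of all genes tested. Their median log2 fold change was -0.14, but it was 0.067 without Db replicate 1, with 1 gene higher, -0.047 without Db replicate 3 and -0.081 and -0.090 without Db + Ato10 replicates 1 and 2. Cab39l, which encodes a scaffold that activates SPAK, had a log2 fold change of -0.53 ± 0.14 (SE) and an adjusted p-value of 0.239 by edgeR. For Ppp1r1a, which encodes a phosphatase inhibitor of this segment, the log2 fold change was -1.21 ± 0.36 (SE) with the same adjusted p-value by edgeR. Tsc22d2 had -0.55 ± 0.21 (SE) and an adjusted p-value of 0.272 by edgeR. Tsc22d1, the most abundant of the list as TPM, was at 1137, 655 and 435 CPM in the Db libraries and at 1022, 1369 and 1443 CPM in the Db + Ato10 libraries, and the groups overlapped.

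Among 5 further cation-chloride cotransporters, 1 was lower and 1 higher at an unadjusted p-value under 0.05, beside 5.71% and 11.2% of all genes. None was higher without Db replicate 1, 2 or 3 or without Db + Ato10 replicate 1, and 2 were lower and 2 higher without Db + Ato10 replicate 3, beside 13.1% and 16.8% of all genes. Slc12a1, the cotransporter of the thick ascending limb, was at 2320, 2037 and 2453 CPM in the Db libraries and at 868, 592 and 990 CPM in the Db + Ato10 libraries. Its log2 fold change was -1.48 ± 0.29 (SE), with an adjusted p-value of 0.239 by edgeR and 5.5e-06 by DESeq2. Slc12a4 was higher, with a log2 fold change of 0.58 ± 0.22 (SE) and an adjusted p-value of 0.268 by edgeR. Slc12a7 was the other most abundant gene of the list as TPM, with a log2 fold change of -0.44 ± 0.22 (SE) and an adjusted p-value of 0.354 by edgeR.

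All 15 genes of distal salt and potassium transport had a log2 fold change below 0, beside 50.6% of all genes tested, with a median of -0.68. For 11 of the 15 every Db + Ato10 library lay below every Db library, beside 11.3% of all genes, and 9 had an unadjusted p-value under 0.05, beside 5.71%. Kcnj1, the potassium channel ROMK, had the smallest p-value of the list, with a log2 fold change of -1.22 ± 0.22 (SE) and an adjusted p-value of 0.239 by edgeR. The same adjusted p-value by edgeR held for Scnn1g, a subunit of the epithelial sodium channel, at -0.78 ± 0.16 (SE), for Bsnd, a subunit of chloride channels, at -0.97 ± 0.20 (SE), and for Hsd11b2, which protects the aldosterone receptor from glucocorticoids, at -0.68 ± 0.15 (SE). Fxyd2, the most abundant as TPM, had a log2 fold change of -0.32 ± 0.31 (SE) and an adjusted p-value of 0.577 by edgeR.

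Of 18 genes of magnesium and calcium handling, 17 were tested and 4 were lower at an unadjusted p-value under 0.05, beside 5.71% of all genes, with a median log2 fold change of -0.54. Without Db + Ato10 replicate 3, 9 of the 17 were lower, beside 13.1% of all genes. Egf, the growth factor made in this segment and the thick ascending limb, was at 2265, 2326 and 1936 CPM in the Db libraries and at 379, 155 and 1028 CPM in the Db + Ato10 libraries. Its log2 fold change was -2.06 ± 0.66 (SE), with an adjusted p-value of 0.239 by edgeR. Casr, the calcium-sensing receptor, had -1.02 ± 0.26 (SE), Atp2b4, a calcium pump, had -0.93 ± 0.24 (SE), and Cnnm2, a magnesium transporter, had -0.72 ± 0.19 (SE), each with the same adjusted p-value by edgeR. Klk1 and S100g, the most abundant as TPM, had log2 fold changes of -0.90 ± 0.38 (SE) and -0.63 ± 0.31 (SE). Kcna1 was not tested, with at most 5 counts in a library.

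Of 4 transcription factors of the segment, 3 were lower at an unadjusted p-value under 0.05, beside 5.71% of all genes. Emx1 was at 43.7, 47.1 and 48.3 CPM in the Db libraries and at 19.2, 20.5 and 34.3 CPM in the Db + Ato10 libraries. The log2 fold changes were -0.91 ± 0.24 (SE) for Emx1, -0.71 ± 0.20 (SE) for Tfap2b and -1.05 ± 0.30 (SE) for Sall3, each with an adjusted p-value of 0.239 by edgeR.

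Markers of other cell types were counted in the same way, and at an unadjusted p-value under 0.05 4 of 6 markers were lower for each of the thick ascending limb, principal cells and intercalated cells, 0 of 7 for the proximal tubule, 0 of 5 for podocytes and 1 of 5 for endothelium, beside 5.71% of all genes. Without Db replicate 1 the count was 2 for principal cells, 2 for intercalated cells and 0 for endothelium, beside 2.52%, and without Db replicate 3 it was 2 for principal cells and 0 for endothelium, beside 2.97%. Without Db + Ato10 replicate 2 it was 2 for principal cells, beside 3.03%, and without Db + Ato10 replicate 3 it was 4 for the proximal tubule and 2 for endothelium, beside 13.1%. Of 6 thick ascending limb markers, 4 did not overlap between the groups, beside 11.3% of all genes below in every library, and all 6 had a log2 fold change below 0, beside 50.6%. Their summed level was 3878, 4468 and 4280 TPM in the Db libraries and 2570, 1370 and 3200 TPM in the Db + Ato10 libraries, and Umod was the most abundant. For 6 markers of principal cells and the connecting tubule, 5 did not overlap, with sums of 935, 754 and 1287 TPM in the Db libraries and 697, 483 and 751 TPM in the Db + Ato10 libraries, led by Aqp2.

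Intercalated cell markers, led by Atp6v1b1, did not overlap for 4 of 6, beside 11.3% of all genes below in every library, with sums of 337, 269 and 253 TPM in the Db libraries and 175, 144 and 164 TPM in the Db + Ato10 libraries. Proximal tubule markers did not overlap for 2 of 7, beside the same 11.3%, and all 7 had a log2 fold change below 0, beside 50.6% of all genes. Their median log2 fold change was -0.80 (-0.49 without Db + Ato10 replicate 1 and -1.75 without replicate 3). Miox led in the Db group (mean 4661 TPM), and Slc27a2 led in the Db + Ato10 group (mean 1634 TPM, beside 1600 for Miox). The 7 markers summed to 12464, 9491 and 11910 TPM in the Db libraries and 1192, 5499 and 10252 TPM in the Db + Ato10 libraries. Here Db + Ato10 replicate 1 was the lowest library. Podocyte markers, led by Podxl, overlapped for all 5, with sums of 226, 145 and 141 TPM in the Db libraries and 208, 76.7 and 137 TPM in the Db + Ato10 libraries. Endothelial markers, led by Emcn, did not overlap for 2 of 5, Kdr and Tek, beside 11.3% of all genes. The 5 log2 fold changes had a median of -0.0018, but it was -0.42 without Db + Ato10 replicate 1 and 0.33 without replicate 2. The 5 markers summed to 190, 162 and 183 TPM in the Db libraries and 224, 92.9 and 167 TPM in the Db + Ato10 libraries. Replicate 2 was the lowest of the Db + Ato10 libraries for podocyte and endothelial markers.

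Leukocyte markers, led by Lyz2, were higher in every Db + Ato10 library for 3 of the 4 tested of 6, beside 12.0% of all genes, with sums of 44.2, 123 and 86.2 TPM in the Db libraries and 4814, 1086 and 131 TPM in the Db + Ato10 libraries. Fibroblast and myofibroblast markers were higher in every Db + Ato10 library for 4 of 6, beside the same 12.0%. They summed to 65.9, 78.2 and 70.9 TPM in the Db libraries and 656, 246 and 104 TPM in the Db + Ato10 libraries. Acta2 led in the Db group (mean 25.2 TPM, beside 21.7 for Dcn). Dcn led in the Db + Ato10 group (mean 105 TPM), with 248, 32.7 and 35.4 TPM in replicates 1 to 3. Tubular injury markers, led by Lcn2, were higher in every Db + Ato10 library for 3 of 4, also beside 12.0%. Their sums were 12.8, 135 and 21.6 TPM in the Db libraries and 11067, 2488 and 796 TPM in the Db + Ato10 libraries.

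Urothelial markers summed to 6.99, 3.40 and 4.91 TPM in the Db libraries and 72.3, 39.6 and 11.9 TPM in the Db + Ato10 libraries. Upk1a led in the Db group (mean 3.13 TPM, beside 0.243 for Krt5). Its mean was 1.83 TPM in the Db + Ato10 group. There Krt5 led and made up most of the sums, with 54.5, 32.5 and 9.08 TPM in replicates 1 to 3. Of the 5 urothelial genes 2 had enough counts, and 1 of these, Krt5, passed through the Db + Ato10 group alone, so no count is given. Skeletal muscle markers, led by Mylpf, summed to at most 3.41 TPM in any library, with 0 of 1 tested gene of 6 apart. Adipocyte markers, led by Cidec, summed to at most 2.06 TPM, and the 1 of 4 with enough counts, Cidec, also passed through the Db + Ato10 group alone. No marker of these lists was at 0 in all 6 libraries. The part of a changed share of cell types in the lower levels of the 10 genes was not tested.

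**Figure D3:**
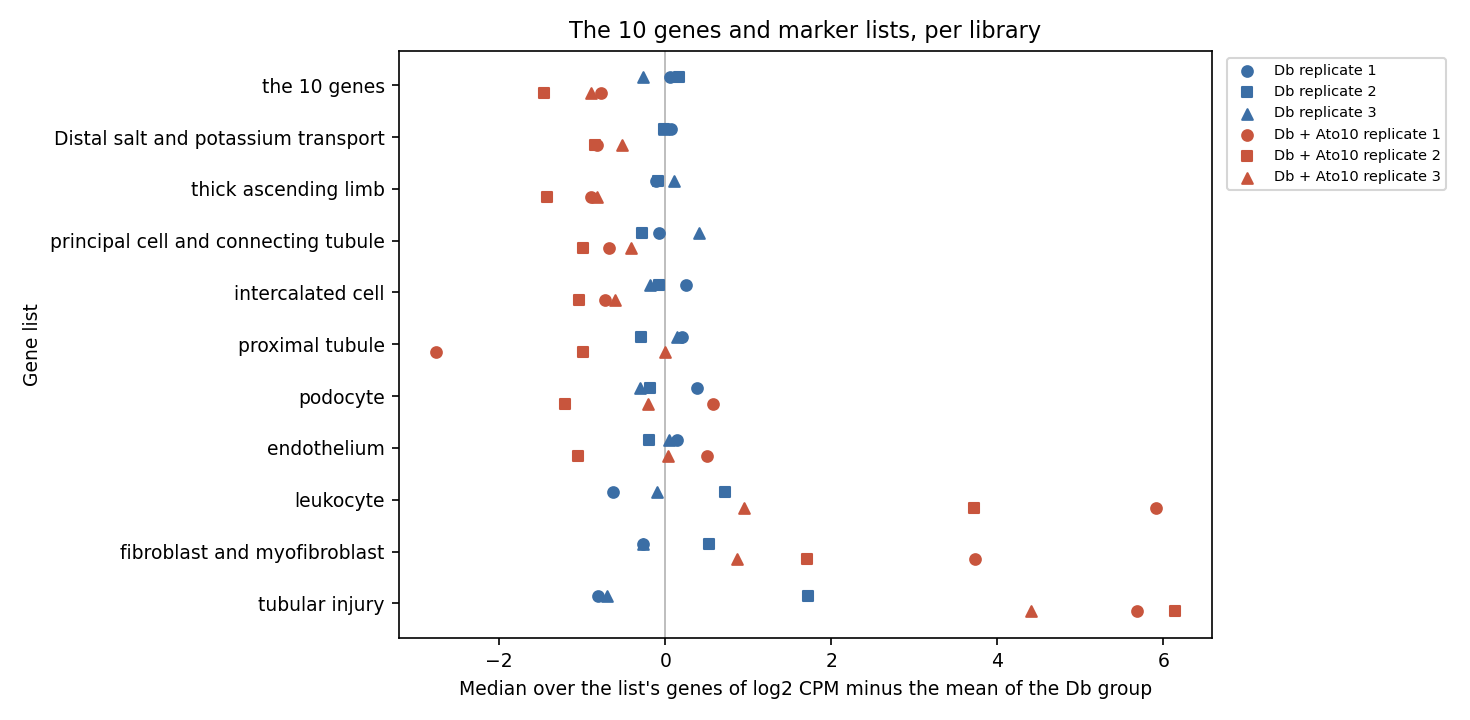
Each point is a library, placed at the median over a list's tested genes of log2 CPM minus the mean of the 3 Db libraries. Blue is the Db group and red the Db + Ato10 group. The 10 genes and the distal nephron lists lie below 0 in all Db + Ato10 libraries, proximal tubule markers are lowest in replicate 1, and in replicate 3 leukocyte markers are at 0.95 and tubular injury markers at 4.41.

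Since the 10 genes were lower together, the 250 bases upstream of their starts were searched on both strands for 5 short motifs, in RefSeq sequences of GRCm38.p6. Promoters were matched by symbol for 9 of the 10 genes, all but Calb1. The TATA box TATAAA was found upstream of 1 of the 9 genes, Slc12a3, and in 12.4% of all 32851 promoters. The GC box GGGCGG was found for 5 genes (Slc12a3, Wnk1, Wnk4, Stk39 and Kcnj10) and in 32.7% of all promoters, and CCAAT for 2 genes (Slc12a3 and Kcnj10) and in 33.8%. The HNF1 half-site GTTAAT and the E-box CACGTG were found for 0 of the 9 genes, and in 6.43% and 6.02% of all promoters. No motif was shared by all of the genes. GC content was lowest upstream of Slc8a1 (50.4%) and highest upstream of Stk39 (82.4%), with 61.2% for Slc12a3 and 53.2% for Klhl3, beside a median of 52.4% over all promoters.

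The 5 sequences below are shown for NCC, for the WNK kinases, for Kir4.1 and for the WNK adaptor, with matches to any of the motifs in capitals. They lie at chr8:94328958-94329207 (+ strand) for Slc12a3, chr11:101260317-101260566 (+ strand) for Wnk4, chr6:120038656-120038905 (- strand) for the upstream promoter of Wnk1, chr1:172340960-172341209 (+ strand) for Kcnj10 and chr13:58113648-58113897 (- strand) for Klhl3, on GRCm38.p6.
Slc12a3: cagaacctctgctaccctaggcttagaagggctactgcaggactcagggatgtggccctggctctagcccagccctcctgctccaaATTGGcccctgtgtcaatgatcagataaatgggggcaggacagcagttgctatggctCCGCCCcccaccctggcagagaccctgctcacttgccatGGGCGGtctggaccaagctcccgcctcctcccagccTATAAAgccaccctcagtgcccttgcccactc
Wnk4: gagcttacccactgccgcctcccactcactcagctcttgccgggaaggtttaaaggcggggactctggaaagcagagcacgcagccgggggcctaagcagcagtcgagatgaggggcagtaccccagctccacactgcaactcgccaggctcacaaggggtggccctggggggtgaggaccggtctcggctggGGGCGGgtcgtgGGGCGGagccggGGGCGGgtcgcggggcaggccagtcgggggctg
Wnk1: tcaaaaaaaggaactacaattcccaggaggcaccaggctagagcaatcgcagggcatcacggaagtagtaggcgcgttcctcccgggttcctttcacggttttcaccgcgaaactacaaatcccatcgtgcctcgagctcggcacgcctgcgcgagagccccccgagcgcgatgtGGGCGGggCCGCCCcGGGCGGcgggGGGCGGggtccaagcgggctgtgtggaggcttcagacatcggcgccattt
Kcnj10: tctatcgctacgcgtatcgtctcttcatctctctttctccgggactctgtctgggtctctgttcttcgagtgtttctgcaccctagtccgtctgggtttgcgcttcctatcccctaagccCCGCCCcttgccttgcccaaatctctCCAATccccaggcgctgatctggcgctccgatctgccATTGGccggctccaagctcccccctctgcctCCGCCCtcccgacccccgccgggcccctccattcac
Klhl3: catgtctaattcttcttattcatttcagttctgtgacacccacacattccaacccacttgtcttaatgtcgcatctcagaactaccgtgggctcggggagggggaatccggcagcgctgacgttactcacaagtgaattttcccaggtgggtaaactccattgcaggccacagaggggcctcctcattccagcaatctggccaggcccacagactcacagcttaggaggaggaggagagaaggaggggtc
Slc12a3 has a TATA box near its start, Wnk4 and Wnk1 have clustered GC boxes without one, and Klhl3 has none of the 5 motifs in this window. A match is a description of letters only.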

How the data were processed

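RNA of whole kidney from 3 Db and 3 Db + Ato10 mice was sequenced on the BGISEQ-500 platform. Per the submitters' processing notes, HISAT, Bowtie2 2.2.5 and the mm9 build were used. For each gene and transcript the authors deposited expected counts, estimated reads that are not normalized. The authors also deposited TPM, scaled to length and to an equal total, and FPKM, scaled to length and library size. The authors' group means were not used.

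Expected counts were rounded (91.3% of gene values were whole, with a tolerance of 0), and a gene or transcript was kept if 3 or more libraries held 10 or more counts. Differences were tested with edgeR 4.0.16 in R 4.3.3 (TMM, quasi-likelihood F test, Benjamini-Hochberg adjustment over all genes or transcripts tested). Standard errors were derived from the log2 fold change and the F statistic (its absolute value over root F). Library sizes for CPM were scaled by TMM, with a prior count of 2 on the log2 scale. Alternatives used DESeq2 1.42.0, limma 3.58.1, other filters and scalings, a replicate block and each library left out. No 2 libraries were identical (0 pairs).

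The genes and lists were chosen with earlier results of these data known. Named from 5 pathway lists are up to 4 genes per direction with the smallest unadjusted p-values under 0.05 and the 2 most abundant by TPM, and from 12 marker lists the most abundant gene and those at 0. Of the genes this rule names, 1 is not reported here.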

Additional observations from a re-analysis of the deposited data

How the results depend on the processing

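All 10 genes had a log2 fold change below 0 under each of the 16 alternatives, among them DESeq2, limma-voom, upper-quartile normalization, other count filters, TPM, FPKM and each library left out. The median of the 10 genes was between -1.19 and -0.84 with 1 library left out. The count of the 10 genes lower at an unadjusted p-value under 0.05 was between 6 and 10 with 1 library left out.

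DEGs among all genes numbered 0 by edgeR, with 2314 genes at an unadjusted p-value under 0.05, 884 by DESeq2, 1 by limma on log2(TPM + 0.1) and between 0 and 1106 by edgeR with 1 library left out, the highest without Db + Ato10 replicate 3. Of the 10 genes, 6 were DEGs by DESeq2 and between 0 and 1 by edgeR with 1 library left out. DESeq2 with 1 library left out, chosen after seeing the data, called 195, 623 and 223 genes when Db replicates 1 to 3 were left out in turn, and 313, 372 and 2614 when Db + Ato10 replicates 1 to 3 were. In the same order it called 1, 3 and 4, then 6, 4 and 7 of the 10 genes. Of all genes tested, the share called lower was 0.258%, 0.723% and 0.346%, then 0.887%, 0.551% and 7.50%. Of the Wnk1 models, 4 were DEGs by DESeq2 with all libraries. By edgeR 0 were DEGs, with all libraries and with 1 left out, and between 3 and 5 were lower at an unadjusted p-value under 0.05 with 1 library left out, the lowest without Db replicate 2. The number of models whose shares did not overlap was between 4 and 5. For these model counts with 1 library left out, no share of all transcripts is given. XM_017321548.1, which met the count filter through the Db group alone, was not set apart in them. The causes of these changes in count were not tested.

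With the replicate number as a replicate block, 7 of the 10 genes were lower at an unadjusted p-value under 0.05. Of all 13679 genes, 1856 reached that p-value in either direction in the same fit. The median log2 fold change of the 10 genes was -1.06 and 0 genes were DEGs. In the blocked fit 4 Wnk1 models were lower at an unadjusted p-value under 0.05, and no share of all transcripts is given for it. Deviations of same-numbered libraries from their group means correlated at -0.15, 0.061 and 0.21 across genes. Of 3 Db libraries, 1 correlated best with its own number. These values gave no sign that the numbers pair the libraries, but with 3 libraries in each group they cannot exclude it.

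Counts of the pathway and marker lists with 1 library left out were chosen after seeing the data. At an unadjusted p-value under 0.05, between 2 and 3 of 15 WNK partners were lower, 4 to 9 of 17 magnesium and calcium genes, 6 to 10 of 15 distal transport genes, 2 to 4 of 6 principal cell markers, 2 to 4 of 6 intercalated cell markers, 0 to 2 of 5 endothelial markers and 0 to 4 of 7 proximal tubule markers, the 4 without Db + Ato10 replicate 3. Transcription factors (3), thick ascending limb markers (4) and podocyte markers (0) had the same counts each time. Higher were 3 to 4 of 4 leukocyte and of 4 tubular injury markers, 3 to 6 of 6 fibroblast markers, 0 to 1 WNK partner and 0 to 2 of 5 cotransporters, of which 1 to 2 were lower. Of all genes, between 2.52% and 13.1% were lower and between 5.16% and 16.8% were higher in the same fits.

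A level of 3 counts, the floor used for a model at 0 counts, was between 0.206 and 0.259 CPM at the transcript level.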
